A study of Mus musculus with 4 samples.

Results

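The colony-stimulating factors and their receptors were examined in cultured mouse primary myoblasts with and without Tet2, the DNA dioxygenase that oxidises 5-methylcytosine. The set was given by gene symbol. It holds 4 ligand genes (Csf1, Il34, Csf2 and Csf3) and 5 receptor genes (Csf1r, Csf2ra, Csf2rb, Csf2rb2 and Csf3r), and all 9 were found among the 24445 genes of the deposited table. Each group was sequenced as 2 RNA libraries, 4 in all. The WT group came from C57BL/6 mice, and the Tet2 KO group from mice labelled as the same strain that lack exon 3 of Tet2 in every tissue. Per the study's methods the animals were young adult males unless stated otherwise. No other allele or treatment separates the groups by the labels. Satellite cells, which are muscle stem cells, were isolated from hindlimb muscle with a gate that removed cells carrying CD45, CD11b, CD31 or Sca1 and kept cells carrying CD34 and integrin alpha 7. They were grown on collagen in a medium labelled as T cell medium until they had become MyoD+ myoblasts. Both groups therefore share the sort, the culture and the medium.

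Colony-stimulating factors are secreted proteins that keep myeloid cells alive and make them divide and mature. CSF-1 and IL-34 both bind CSF1R, a receptor tyrosine kinase of the monocyte and macrophage lineage, and CSF-1 is also made by fibroblasts, endothelial cells and muscle cells. GM-CSF, the product of Csf2, binds a complex of its own alpha chain (Csf2ra) and the common beta chain (Csf2rb) that also serves IL-3 and IL-5. Mice carry an additional beta chain gene, Csf2rb2, which serves IL-3. G-CSF, the product of Csf3, acts through CSF3R on the neutrophil lineage.

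The deposited values are FPKM (fragments counted per kilobase of a transcript in each 1000000 mapped fragments), with 1 value for each gene in each group, so levels can be set side by side between genes as amounts per length. The libraries of a group are combined in that value. No value per library was used, so no SD and no test stands beside any value here, and the 2 groups have no replicate check. Depth is unknown. A difference is given as the log2 ratio of Tet2 KO over WT after adding a pseudocount of 1 FPKM, which makes the differences of genes with low values look smaller than they are. A gene was taken as past 2-fold when this log2 ratio was at least 1 in either direction at a mean of at least 1 FPKM in the 2 groups. Of the 11692 genes at that mean, 2.08% were past 2-fold higher in Tet2 KO and 1.21% past 2-fold lower. Their median log2 ratio was -0.0044.

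The targeted gene had 5.79 FPKM in Tet2 KO against 6.64 FPKM in WT. This gene-level value covers all exons and checks neither label. The labelled cell type was checked against its markers. All 7 myoblast genes were above 1 FPKM in both groups, with Myod1, the factor of muscle commitment, at 313 FPKM in Tet2 KO against 336 FPKM in WT.

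Csf1r and Csf2rb, both receptor genes, were past 2-fold higher in Tet2 KO, and no member was past 2-fold lower. Of the 5 receptors, 3 had a mean of at least 1 FPKM and could be counted, and 2 of these were past 2-fold higher, where 2.08% of all genes at that mean were. Of the 4 ligands, 2 could be counted, Csf1 and Il34, and 0 of these were past 2-fold in either direction. Csf2, Csf3, Csf2rb2 and Csf3r lay below that mean. These counts are too small to set ligands and receptors apart. The log2 ratios of Csf1 and Il34 lay between the 5th and the 95th percentile of the genes with a mean of at least 1 FPKM, -0.40 and 0.44. Those of the 5 receptors lay above the 95th percentile. Csf2 and Csf3 also lay between these percentiles, but at their levels the pseudocount draws the log2 ratio towards 0. Without a pseudocount the log2 ratio was 0.23 for Csf3, still between them, and 1.21 for Csf2, above them. By plain ratio Csf2 lay above 97.5% of those genes. All 9 members were higher in Tet2 KO than in WT, by log2 ratios that ran from 0.026 for Csf3 to 1.60 for Csf1r. Of all genes with a mean of at least 1 FPKM, 48.8% were higher in Tet2 KO. The direction of Csf2 and Csf3 rests on values near 0. The summed level of the 5 receptor genes was 18.9 FPKM in Tet2 KO against 5.77 FPKM in WT, a ratio of 3.28. The summed level of the 4 ligand genes was 176 FPKM and 154 FPKM, a ratio of 1.14. Over all members of each kind, whatever their level, the median log2 ratio was 0.15 for the ligands and 0.72 for the receptors. Without a pseudocount these medians were 0.29 and 1.85. Markers of macrophages and neutrophils were also higher in Tet2 KO, with median log2 ratios of 1.57 and 1.80. In bulk RNA, more cells of a type and more RNA per cell cannot be told apart.

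**Figure D1:**
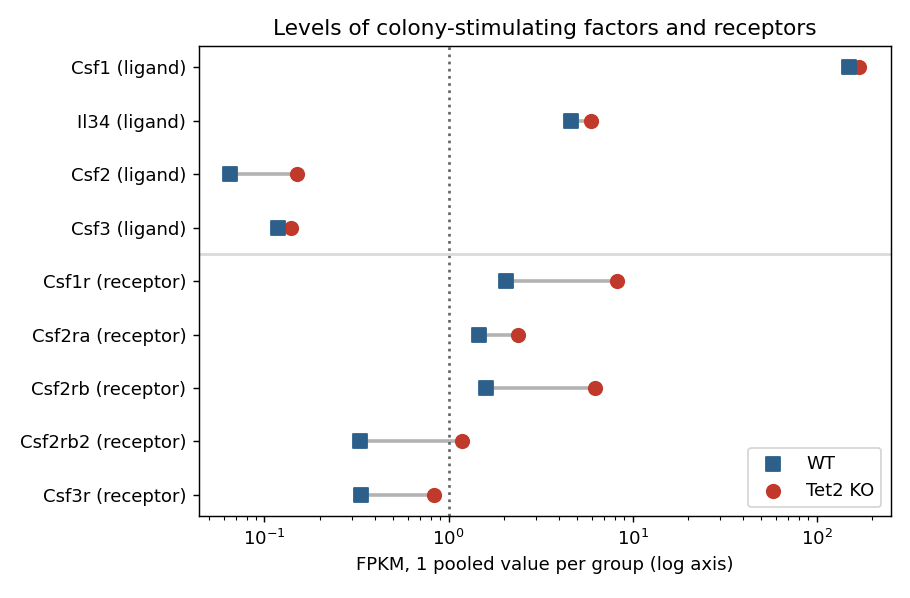
Level of each ligand and receptor gene in FPKM on a log axis, with 1 pooled value for WT (squares) and 1 for Tet2 KO (circles), joined by a line, and a dotted line at 1 FPKM. Csf1 stands far to the right at 170 FPKM in Tet2 KO against 149 FPKM in WT, and the longest lines on this log axis are those of Csf1r, Csf2rb and Csf2rb2.

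Csf1, the gene of macrophage colony-stimulating factor, was by far the most abundant member. It had 170 FPKM in Tet2 KO against 149 FPKM in WT. By level it ranked 535 among all genes in Tet2 KO and 615 in WT. Both groups therefore held abundant Csf1 RNA, and its log2 ratio was 0.19. Csf1 lies on chromosome 3 on the minus strand, at chr3:107543966-107563387 in mm9, and its longest annotated transcript has 9 exons.

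Il34, the gene of the other ligand of CSF1R, had 5.95 FPKM in Tet2 KO against 4.63 FPKM in WT. Its log2 ratio of 0.30 was larger than that of Csf1 and lay above 92.4% of the genes with a mean of at least 1 FPKM. Csf1 exceeded Il34 in both groups, by 28.6 times in Tet2 KO and 32.2 times in WT. Il34 lies at chr8:113265729-113329824 on the minus strand. The annotation places 2 noncoding transcripts on the opposite strand within it, and the library kit does not mark strand, so reads of these cannot be told from reads of Il34.

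Csf2 and Csf3, the genes of GM-CSF and G-CSF, were close to absent. Csf2 had 0.151 FPKM in Tet2 KO against 0.0652 FPKM in WT. Csf3 had 0.139 FPKM and 0.119 FPKM. The authors' program marked both genes as not tested, a status it gives to genes with too few aligned fragments, whereas the other 7 members carried no such mark. At these levels the plain ratio of Csf2, 2.31, rests on values near 0, and with the pseudocount its log2 ratio was 0.11. Both genes lie on chromosome 11, Csf2 at chr11:54060772-54063401 and Csf3 at chr11:98562627-98564943. The annotation places 1 noncoding gene, Gm12223, over Csf2 on the opposite strand. Where they overlap, its reads cannot be told from those of Csf2, as for Il34. Il3, the neighbour of Csf2 and the gene of a related factor, was listed at 0 in both groups.

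The receptors were led by Csf1r. It had 8.25 FPKM in Tet2 KO against 2.06 FPKM in WT, a plain ratio of 4.01 and a log2 ratio of 1.60 with the pseudocount. That ratio lay above 99.4% of the genes with a mean of at least 1 FPKM. Csf1r lies at chr18:61265226-61290793 on the plus strand, and its longest annotated transcript has 21 exons. The annotation used here extends 1 transcript of Csf1r into the neighbouring gene Hmgxb3 on the opposite strand. Of the 75-base windows of the annotated Csf1r transcripts, 15.3% occur there. By the coordinates deposited with the values, 137 bases separate Csf1r from Hmgxb3, so this overlap lies outside the deposited span of Csf1r. Hmgxb3 itself had 17.9 FPKM in both groups, with a log2 ratio of -0.0011.

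**Figure D2:**
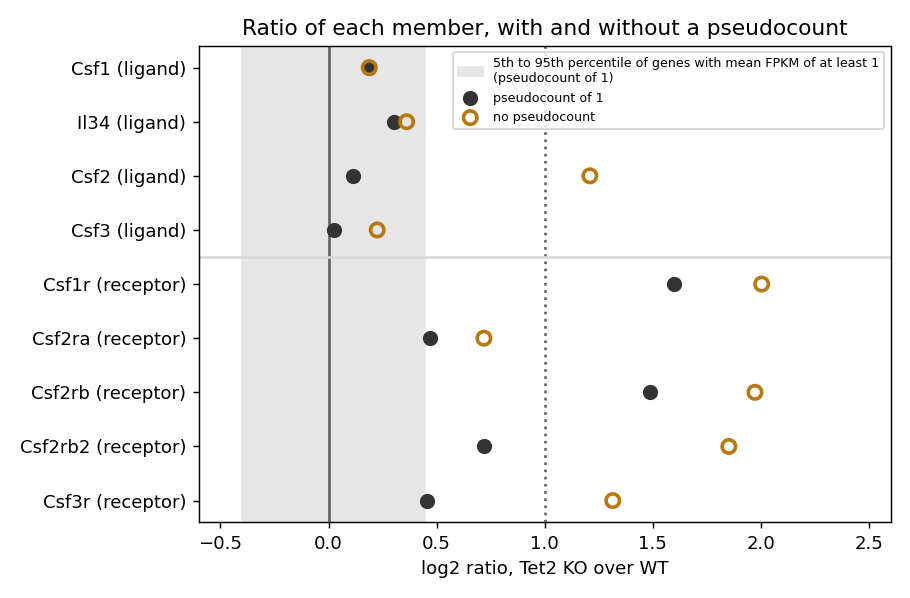
Log2 ratio of Tet2 KO over WT for each member, with the pseudocount of 1 (filled) and without a pseudocount (open), over a grey band from the 5th to the 95th percentile of genes with a mean of at least 1 FPKM and a dotted line at 2-fold. The 4 ligands with the pseudocount lie inside the band and the 5 receptors to its right, and Csf2, Csf2rb2 and Csf3r shift most when the pseudocount is dropped. The open point of Csf2 lies to the right of the band, whereas that of Csf3 lies inside it. At the levels of both genes the pseudocount draws the filled point towards 0.

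Csf2rb, the beta chain shared by the receptors of GM-CSF, IL-3 and IL-5, had 6.27 FPKM in Tet2 KO against 1.60 FPKM in WT. Its log2 ratio was 1.49. Csf2rb2, the additional beta chain gene of the mouse, had 1.19 FPKM and 0.329 FPKM, with a log2 ratio of 0.72. This log2 ratio was below the limit of 1 and its mean of 0.758 FPKM was under 1, so Csf2rb2 did not count as past 2-fold. Without a pseudocount the log2 ratios of both beta chain genes were close, at 1.97 for Csf2rb and 1.85 for Csf2rb2. The level of Csf2rb was 5.29 times that of Csf2rb2 in Tet2 KO and 4.86 times in WT, so the proportion of the copies was similar in both groups.

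These genes are neighbours on chromosome 15, Csf2rb at chr15:78156420-78181431 on the plus strand and Csf2rb2 at chr15:78112938-78136151 on the minus strand, with 20268 bases between them. They are also close copies, which bears on how far their values can be told apart. Of the 2631 aligned bases of their longest coding sequences 95.2% were identical, and the longest identical run was 242 bases. Of the 75-base windows in the transcripts of Csf2rb, 10.0% occur in those of Csf2rb2, and 11.0% in the reverse direction. The 90 coding bases below, from position 23 to 112 of each coding sequence, are shown as a stretch of typical similarity, and their 4 differences are in capitals. They span the end of exon 2 and the start of exon 3, at chr15:78165659-78165724 and chr15:78166778-78166801 for Csf2rb and at chr15:78128572-78128637 and chr15:78127509-78127532 for Csf2rb2, in mm9.
Csf2rb: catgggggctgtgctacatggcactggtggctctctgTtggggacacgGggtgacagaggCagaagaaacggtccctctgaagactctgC
Csf2rb2: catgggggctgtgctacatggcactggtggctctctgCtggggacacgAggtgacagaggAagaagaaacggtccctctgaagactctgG
How the authors' program shared fragments that fit both copies is not given in the sources used here, so the separate values of the copies are uncertain. Summed as 1 gene, they had a log2 ratio of 1.53, between those of Csf1r and Csf2rb.

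Csf2ra, the alpha chain that makes the complex specific for GM-CSF, moved less than the beta chain. It had 2.39 FPKM in Tet2 KO against 1.46 FPKM in WT, which gives a log2 ratio of 0.47. In WT the level of Csf2rb was 1.10 times that of Csf2ra, and in Tet2 KO it was 2.62 times. Csf2ra lies at chr19:61300305-61304321 on the minus strand, and none of its 75-base windows occur in another annotated protein-coding gene.

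Csf3r, the receptor of G-CSF, was the lowest receptor in Tet2 KO. It had 0.830 FPKM in Tet2 KO against 0.334 FPKM in WT, which gives a log2 ratio of 0.46 with the pseudocount and 1.32 without. In WT its level and that of Csf2rb2 were nearly equal. Csf3r lies at chr4:125701903-125722219 on the plus strand, with 16 exons in its longest annotated transcript.

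The order of levels from the highest down was Csf1, Csf1r, Csf2rb, Il34, Csf2ra, Csf2rb2, Csf3r, Csf2 and Csf3 in Tet2 KO. In WT it was Csf1, Il34, Csf1r, Csf2rb, Csf2ra, Csf3r, Csf2rb2, Csf3 and Csf2. With no spread per group, it cannot be said which neighbours in these orders differ.

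By plain ratio and with no filter on low values, 4 of the 5 receptors and 1 of the 4 ligands were at least 2-fold higher in Tet2 KO. The ligand was Csf2, and the receptor that was not was Csf2ra. Under this rule 7.1% of the 17961 genes above 0 in both groups were at least 2-fold higher and 6.16% at least 2-fold lower.

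**Figure D3:**
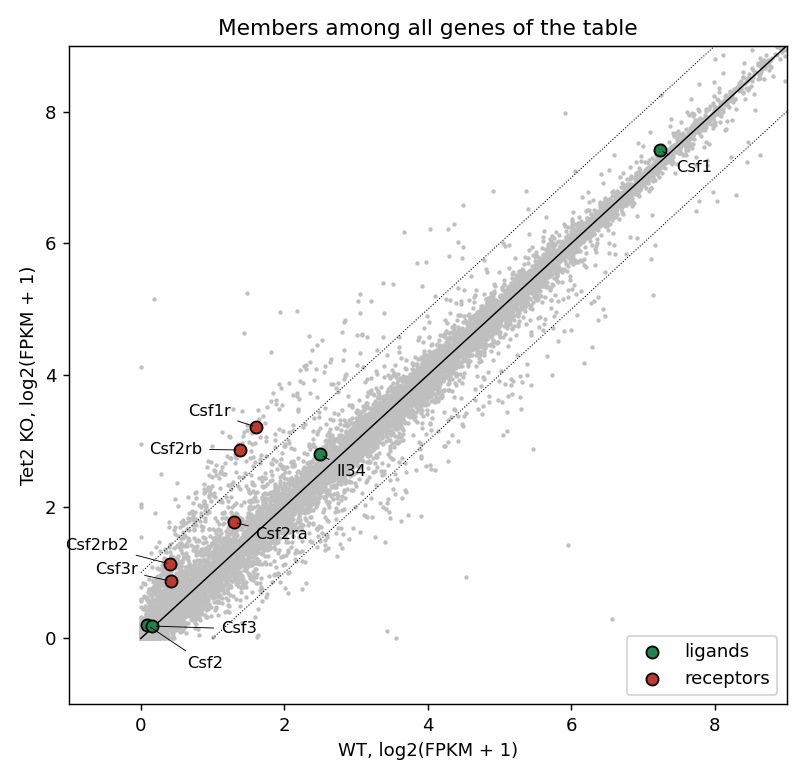
All genes of the table by level in WT (x axis) and Tet2 KO (y axis) on the log2(FPKM + 1) scale, with ligands in green, receptors in red, the line of equal levels and dotted lines at 2-fold. Csf1 and Il34 lie close to the line of equal levels and Csf1r and Csf2rb above the upper 2-fold line, and 193 genes beyond the axis limit of 9 are not drawn.

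Ligand levels were also set against those of their receptors within each group. The level of Csf1 was 72.5 times that of Csf1r in WT and 20.6 times in Tet2 KO. Il34 was 2.25 times Csf1r in WT and 0.721 times in Tet2 KO, so that Il34 lay above its receptor in WT and below it in Tet2 KO. Csf3 was 0.355 times Csf3r in WT and 0.167 times in Tet2 KO. Csf2 was 0.0448 times its alpha chain Csf2ra in WT and 0.0630 times in Tet2 KO, the 1 pair of a ligand and a receptor whose ratio was higher in Tet2 KO. Against the beta chain Csf2rb it was 0.0408 times in WT and 0.0240 times in Tet2 KO. These are ratios of RNA levels per length within a group.

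The promoter sequences of the members were searched for a motif of PU.1, the myeloid factor encoded by Spi1. Spi1 had 6.71 FPKM in Tet2 KO against 1.57 FPKM in WT, which gives a log2 ratio of 1.59. RefSeq promoter entries of build GRCm38.p6 were at hand for 5 of the 9 members, namely Csf1, Csf2, Csf2ra, Csf2rb2 and Csf3r. Entries for Il34, Csf3, Csf1r and Csf2rb were not used here. The receptors past 2-fold, Csf1r and Csf2rb, were therefore not searched, and none of the 3 receptors searched was past 2-fold. The letters GAGGAA, a core of PU.1 motifs, were sought on both strands of the 250 bases before each start. They were found in all 3 receptor promoters and in neither ligand promoter, and 23.3% of all 32851 promoters hold them. The receptor promoters and that of Csf1 are shown with these matches in capitals, read 5′ to 3′ on the strand of the gene (a match on the other strand reads TTCCTC).
Csf2ra, chr19:61228419-61228668, minus strand: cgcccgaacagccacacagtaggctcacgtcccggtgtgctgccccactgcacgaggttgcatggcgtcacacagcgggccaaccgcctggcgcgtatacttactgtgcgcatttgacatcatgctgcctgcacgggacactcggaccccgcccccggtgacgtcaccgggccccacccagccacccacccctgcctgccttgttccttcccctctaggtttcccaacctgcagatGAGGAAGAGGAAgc
Csf3r, chr4:126024409-126024658, plus strand: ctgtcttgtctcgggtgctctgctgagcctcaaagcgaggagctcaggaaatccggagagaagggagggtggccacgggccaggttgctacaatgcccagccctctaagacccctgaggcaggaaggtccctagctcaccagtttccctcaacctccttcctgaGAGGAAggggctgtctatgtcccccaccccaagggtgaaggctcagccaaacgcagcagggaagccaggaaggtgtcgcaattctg
Csf2rb2, chr15:78305722-78305971, minus strand: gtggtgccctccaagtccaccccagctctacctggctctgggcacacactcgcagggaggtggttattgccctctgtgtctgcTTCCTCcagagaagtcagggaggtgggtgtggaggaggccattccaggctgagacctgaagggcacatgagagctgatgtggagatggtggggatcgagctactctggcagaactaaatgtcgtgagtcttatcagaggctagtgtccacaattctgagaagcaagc
Csf1, chr3:107760470-107760719, minus strand: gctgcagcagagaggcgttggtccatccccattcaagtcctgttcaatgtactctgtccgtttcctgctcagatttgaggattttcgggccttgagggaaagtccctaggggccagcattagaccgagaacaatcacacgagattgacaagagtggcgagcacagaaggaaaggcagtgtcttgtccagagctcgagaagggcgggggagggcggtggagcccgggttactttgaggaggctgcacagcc
In Csf2ra a pair of adjacent matches begins 14 and 8 bases before the start. The match in Csf3r begins 86 bases and that in Csf2rb2, on the other strand, 167 bases before it. A motif of NF-kappaB, a factor of inflammatory signalling, matched in Csf1, 154 bases before the start, and in Csf3r, 129 bases before it, and 7.25% of promoters hold this motif. The C/EBP motif TTNNGNAA matched in Csf2 and Csf2ra, and 36.8% of promoters hold it. A match is a match of letters only.

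Genes that act downstream of these receptors were described from a list of 30 genes of kinases, adaptors, transcription factors and inhibitors, of which 29 had a mean of at least 1 FPKM. Of these 29, 6 were past 2-fold higher (20.7%, where 2.08% of all genes were) and 0 past 2-fold lower, and the list median was 0.20. Examples, named here after their values were seen, were Ptpn6 and Inpp5d, which encode a phosphatase and a lipid phosphatase of blood cell signalling, the kinase genes Fes and Syk, and the phospholipase gene Plcg2. Inpp5d and Syk were below 1 FPKM in WT, at 0.971 and 0.646 FPKM, and reached the mean of 1 FPKM through their level in Tet2 KO. Ptpn6 had 12.9 FPKM in Tet2 KO against 5.60 FPKM in WT, which gives a log2 ratio of 1.08. Jak2, a kinase that many cytokine receptors use, had a log2 ratio of 0.20, and Stat5a, a transcription factor that such kinases activate, had one of -0.09. Grb2, an adaptor of receptor kinases, was lowest with a log2 ratio of -0.12.

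Transcription factors known to act on these receptor genes were described in the same way. Of the 9 with a mean of at least 1 FPKM, 2 were past 2-fold higher, namely Spi1 and Cebpe (22.2%, where 2.08% of all genes were), and 0 past 2-fold lower. Cebpe, a factor of granulocyte maturation named after its values were seen, had 2.87 FPKM in Tet2 KO against 0.864 FPKM in WT and so reached the mean of 1 FPKM through its level in Tet2 KO. Cebpb, the most abundant, had 59.3 FPKM in Tet2 KO against 48.6 FPKM in WT, and Runx1 was lowest with a log2 ratio of -0.19. The list median was 0.46.

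Related ligands and receptors were listed too. Of 12 genes, 6 had a mean of at least 1 FPKM and 0 of these were past 2-fold, where 2.08% of all genes were past 2-fold higher. Their median log2 ratio was 0.16, from -0.15 for Flt3l, the ligand of FLT3, to 0.50 for Pdgfra, a kinase of the same family as CSF1R, which lay above the 95th percentile of 0.44. Sdc1, a proteoglycan that binds IL-34, was the most abundant with 64.4 FPKM in Tet2 KO against 62.0 FPKM in WT. Genes of cytokines and receptors that induce colony-stimulating factors were also examined. Of 14, 9 had a mean of at least 1 FPKM, with a median of 0.16 and 0 past 2-fold. The range ran from -0.31 for Il1b to 0.95 for Tnf, which had 2.29 FPKM in Tet2 KO against 0.699 FPKM in WT. Tnf thus reached the mean of 1 FPKM through its level in Tet2 KO. Nfkb1, the most abundant, had 48.4 FPKM and 48.7 FPKM.

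Most markers of macrophages and neutrophils were also higher in Tet2 KO. Of 20 macrophage markers, 19 had a mean of at least 1 FPKM. Of these, 16 were past 2-fold higher (84.2%, where 2.08% of all genes were) and 0 past 2-fold lower, and the median log2 ratio was 1.57. The summed level of the 20 genes was 571 FPKM in Tet2 KO against 148 FPKM in WT. Lyz2, lysozyme of macrophages and the most abundant, had 253 FPKM and 59.5 FPKM, and the log2 ratios ran from 0.88 for Cd14 to 2.19 for Clec7a. Of 15 neutrophil markers, 13 had a mean of at least 1 FPKM. Of these, 11 were past 2-fold higher (84.6%) and 0 past 2-fold lower, and the median was 1.80. Their summed level was 2064 FPKM in Tet2 KO against 580 FPKM in WT. S100a8, the most abundant, had 941 FPKM and 285 FPKM, and the log2 ratios ran from 0.77 for Retnlg to 2.50 for Ltf. Adgre1 of the macrophage list and Mmp9 and Retnlg of the neutrophil list were below 1 FPKM in WT, at 0.712, 0.521 and 0.555 FPKM. Named here after their values were seen, they reached the mean of 1 FPKM through their level in Tet2 KO. In neither list was a gene at 0. Ptprc and Itgam, which encode the CD45 and CD11b that the sort selected against, had 5.67 and 10.1 FPKM in Tet2 KO and 1.36 and 2.09 FPKM in WT.

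**Figure D4:**
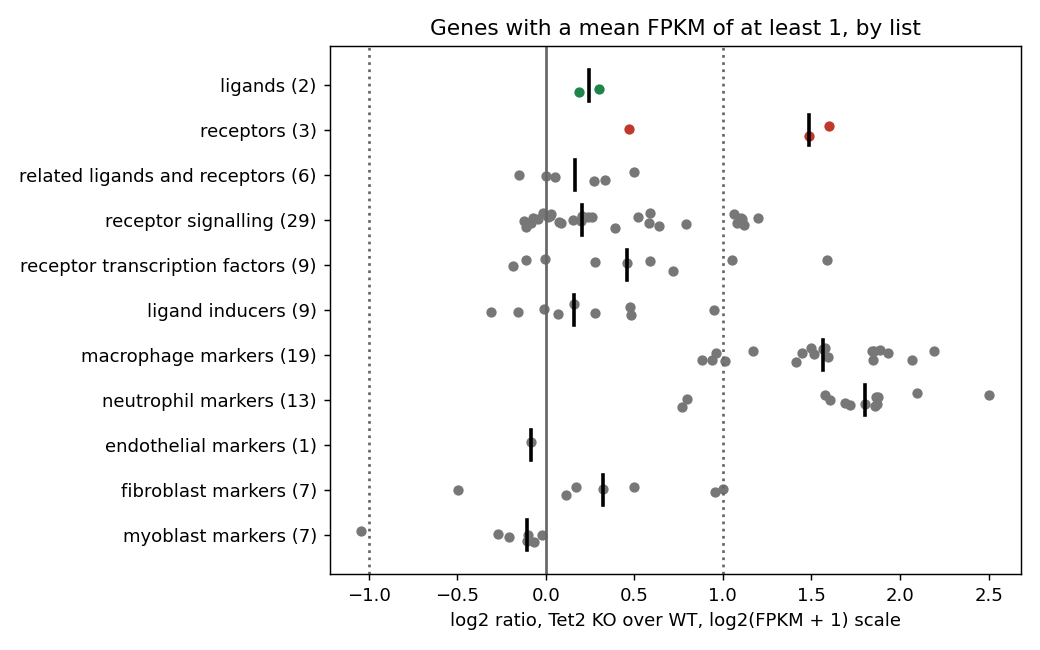
Log2 ratio of Tet2 KO over WT on the log2(FPKM + 1) scale for genes with a mean of at least 1 FPKM, 1 point per gene, by list, with the number of genes in brackets, a bar at each list median and dotted lines at 2-fold. The receptors Csf1r and Csf2rb lie in the range of the macrophage and neutrophil markers. The receptor Csf2ra, at 0.47, lies below all of these markers that are drawn, and the ligands Csf1 and Il34 lie at 0.19 and 0.30.

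The members were set beside these markers by plain ratio. Without a pseudocount, the log2 ratios of the 19 macrophage markers ran from 1.08 to 2.82 around a median of 1.93. Csf1r, Csf2rb and Csf2rb2 differed from that median by 0.08, 0.05 and -0.07. Csf3r at 1.32 lay inside the range of these markers and below all 13 neutrophil markers, whose lowest was 1.57. Csf2ra at 0.72, Il34 at 0.36, Csf3 at 0.23 and Csf1 at 0.19 lay below all 19 macrophage markers. Csf2 at 1.21 lay inside their range, above 2 of the 19, and below all 13 neutrophil markers. By plain ratio, ligands and receptors were therefore not fully separated, as Csf2 lay above the receptor Csf2ra. The ratios of Csf2 and Csf3 rest on values near 0. Csf1, Csf3 and Il34 lay below every receptor. The part of myeloid cells in the receptor values was not tested.

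Markers of other cell types were low or had smaller list medians, although single genes overlapped the myeloid markers. The fibroblast genes Mfap5, at 1.00, and Dcn, at 0.95 and named after its values were seen, lay above the 0.88 of Cd14. None of 9 mast cell and eosinophil markers or 10 lymphocyte markers found in the table had a mean of at least 1 FPKM. The highest value of the mast cell and eosinophil list was 0.760 FPKM, in WT. That of the lymphocyte list was 1.09 FPKM, in Tet2 KO. Of 7 endothelial markers, Pecam1, which encodes CD31, was the 1 gene at that mean, with 1.48 FPKM in Tet2 KO against 1.63 FPKM in WT. The 7 fibroblast markers at that mean had a median of 0.32, from -0.50 for Postn to 1.00 for Mfap5, and 1 of them, Mfap5, was past 2-fold. Their most abundant gene, Col3a1, had 171 FPKM in Tet2 KO against 152 FPKM in WT. The 7 myoblast markers had a median of -0.10. The lowest was Myog at -1.04, which was also the most abundant, and the highest was Pax7 at -0.02.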

How the data were processed

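RNA of 2 WT and 2 Tet2 KO cultures of primary myoblasts was made into TruSeq libraries. As the methods state, the authors trimmed and filtered reads, mapped read pairs to mm9 with TopHat (2.0.13) and estimated expression with Cuffdiff (2.2.1). The authors deposited 1 FPKM value per gene and group. The gene annotation and the way libraries were combined are not given in the sources used here. The deposited table also holds the authors' own comparison (log2 fold changes, test statistics, p-values and q-values), none of which was used. Depth is unknown, and with 1 value per group no test could be made.

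Log2 ratios of Tet2 KO over WT were computed at a pseudocount of 1 FPKM. Past 2-fold means at least 2-fold on that scale at a mean of at least 1 FPKM. The members and lists were chosen with earlier results of these data known. Named are all members, Tet2, the extreme and the most abundant gene of each list, and the 3 genes nearest in level to the most abundant ligand and receptor. Others are marked as named after their values were seen, and some genes that this rule would name are not reported here. Table coordinates are mm9, 1-based. Strand, exons and transcripts came from GENCODE vM1 of the same build, in which 83.6% of the table's symbols were found. Shared sequence was counted as 75-base windows of protein-coding transcripts. Promoters came from RefSeq (GRCm38.p6). Alternatives were a pseudocount of 0.1 or none, no filter, a mean of at least 5 FPKM, 1.5-fold and 3-fold limits, median centring, TPM and the summed beta chain copies. Python 3.11.15, numpy 2.4.6, pandas 2.3.3, matplotlib 3.10.9 and Biopython 1.88 were used.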

Additional observations from a re-analysis of the deposited data

How the results depend on the processing

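No paired analysis was possible because the table holds 1 pooled value per group, so single libraries could not be left out either. Every member stayed higher in Tet2 KO under both other pseudocount settings, median centring and TPM, but none of these could have reversed a member. No pseudocount can change the direction of a difference. Median centring removed a median of -0.0044 and TPM shifted plain log2 ratios by 0.0035, both towards Tet2 KO. Median centring moved no log2 ratio, median or count by over 1.5 times, and the summed beta chain copies moved neither the count nor the median of the receptors by as much. With no pseudocount together with no filter, a combination chosen after seeing the data, 4 receptors and 1 ligand were past 2-fold higher, as were 1 related gene, 4 transcription factors and 1 inducer, against 7.1% of all genes higher and 6.16% lower. With the filter kept, 1 inducer was past 2-fold higher with no pseudocount, at a pseudocount of 0.1 and in TPM. That inducer was Tnf, which was below 1 FPKM in WT. Of all genes, 2.92%, 2.86% and 2.65% were past 2-fold higher in these settings. The share of all genes past 2-fold lower was 1.92% with no pseudocount and 1.84% at 0.1. With no filter the receptor median fell from 1.49 to 0.72, as Csf2rb2 and Csf3r entered. In TPM these genes also passed the filter, and the receptor median was 0.97. With no filter, 1.02% of all genes were past 2-fold higher and 0.585% lower. The endothelial median turned from -0.08 to 0.012 with no filter and to 0.037 with no pseudocount as well, as its list grew from 1 gene. At a mean of at least 5 FPKM, 1 receptor, Csf1r, 1 signalling gene and 0 transcription factors were past 2-fold higher, against 1.23% of all genes. At 1.5-fold, 4 transcription factors and 1 inducer were past the limit, against 3.72% of all genes higher and 2.89% lower. At 3-fold, 1 receptor, 0 signalling genes and 1 transcription factor were past it, with 8 macrophage markers in place of 16, against 0.693% and 0.214%. The distance between the libraries of a group is not visible in pooled values.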

Other observations

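Over the 2 group values, the genes of the table nearest to Csf1 by Euclidean distance in log2(FPKM + 1) were Col3a1, a fibrillar collagen (171 FPKM in Tet2 KO against 152 FPKM in WT, distance 0.024), Psat1, an enzyme of serine synthesis (distance 0.048), and Ugdh, an enzyme of glycosaminoglycan precursors (distance 0.065). Those nearest to Csf1r were Mcub (8.12 FPKM and 1.98 FPKM, distance 0.042), Ifitm6 (distance 0.095) and AI662270 (distance 0.10). With 2 values per gene such nearness states only a like level and a like ratio.

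Genes within 100 kb of each member were also listed. Those with a mean of at least 1 FPKM numbered 1 beside Csf1, 5 beside Il34, 1 beside Csf2 and 7 beside Csf3. There were 3 beside Csf1r, 2 beside Csf2ra and 4 beside Csf3r. None of these was past 2-fold in either direction, where 2.08% of all genes were past 2-fold higher and 1.21% lower. So few genes cannot be told apart from those shares. At the beta chain locus, Csf2rb and Csf2rb2 lie beside Ncf4, which encodes a subunit of the phagocyte NADPH oxidase and was named after its values were seen. Ncf4 had 10.9 FPKM in Tet2 KO against 2.70 FPKM in WT, which gives a log2 ratio of 1.68, and lies 19927 bases from Csf2rb2. The other neighbours of Csf2rb at that mean, Tst, Mpst and Kctd17, had log2 ratios of 0.15, 0.24 and 0.11. Pdgfrb, which lies 20504 bases from Csf1r and encodes a kinase of the same family, had 2.48 FPKM in Tet2 KO against 1.87 FPKM in WT, which gives a log2 ratio of 0.27.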
